A study of Mus musculus with 18 samples.

Results

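The cAMP response element (CRE) is the palindrome TGACGTCA, and the sequences described here are the 48 8-mers that contain its central bases GACGTC. They were taken by a sequence rule alone from the 65530 8-mers of the deposited z-score table, and all 48 were among the 65121 8-mers tested. The rule itself was chosen with earlier results of these data known. Each 8-mer has the core at 1 of 3 offsets, and 16 members have the core first, 16 have it centred and 16 have it last. Because GACGTC is its own reverse complement, the set holds 4 palindromes and 22 pairs of reverse complements. Of the 48, 15 carry a CRE half-site (T before the core, A after it, or both): 7 with the core centred, 4 with it first and 4 with it last. The other 33 have neither base at a position inside the 8-mer.

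The study measured binding of the DNA-binding domains of the mouse proteins CREB1, ATF1 and JUND on protein binding microarrays, on which a tagged protein is read by fluorescence on many double-stranded DNA probes. Each was a fusion with a GST tag (glutathione S-transferase) expressed in a cell-free transcription and translation system, so neither full-length protein nor cells were present. The second strand of the probes was synthesized with plain cytosine (C), with 5-methylcytosine (5mC) or with 5-hydroxymethylcytosine (5hmC) in its place. The modified base therefore stood at each C of the synthesized strand, and the printed strand kept plain C, so that modified DNA was modified on 1 strand. There were 9 groups, 1 for each protein on each DNA, with 2 arrays in each group. Nothing in the labels tells if both arrays of 1 group came from different protein batches, and p-values therefore cover the spread among arrays alone, which can be technical.

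CREB1 and ATF1 are basic leucine zipper (bZIP) proteins of one family. They bind the CRE as dimers, each monomer contacting a half-site, and regulate genes in response to cAMP and other signals. JUND belongs to the AP-1 family of bZIP proteins, whose preferred site lacks the central CpG, but Jun dimers also bind the CRE. CpG is the usual place of 5mC in mammalian DNA, and the CRE core holds a CpG at its centre.

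The 8-mers below are written 5′ to 3′ as on the synthesized strand, with the core in capitals and the flanking bases in lower case. They are shown because the results turn on their flanks: the full site, the strongest members with 1 half-site, and the other palindromes. Some members with a second CpG at the edge of the core and no half-site are shown too. Here CpG before means C just before the core, and CpG after means G just after it.
Full CRE: tGACGTCa
Core first, A after: GACGTCac
Core first, A after: GACGTCat
Core last, T before: atGACGTC
Core last, T before: gtGACGTC
Core centred, A after, CpG before: cGACGTCa
Core centred, T before, CpG after: tGACGTCg
Palindrome with CpG on both sides: cGACGTCg
Palindrome: aGACGTCt
Palindrome: gGACGTCc
Core last, CpG before: gcGACGTC
Core last, CpG before: acGACGTC
Reverse complement of gcGACGTC, CpG after: GACGTCgc
Reverse complement of acGACGTC, CpG after: GACGTCgt

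Values are the deposited z-scores per array, given for replicate 1 and then replicate 2. A z-score of 0 lies near the middle of all 8-mers on that array. Neither the formula of the score nor its scale is stated in these sources, so differences and shares of z-scores hold in deposited units only. The number of probes behind each member was 13 to 21 (median 18), and the members share probes, since 306 of the 40330 probes carried the core. Of the 14 members with 1 half-site, the 6 with the core centred shared no probe with the full site, and the 8 others shared between 3 and 5 of their 15 to 19 probes with it. Median signals of the 18 arrays ranged from 519 to 8014, and the correlation of replicate arrays over all 8-mers was between 0.290 (JUND on 5hmC) and 0.957 (CREB1 on C). Readings at the top of the scanner range (65520 or more) occurred on the C arrays of CREB1 at 7 and 15 of the 306 core probes and on those of ATF1 at 16 and 20. On replicate 2 with 5mC they occurred at 2 core probes for CREB1 and 1 for ATF1. Such values are lower bounds.

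On unmodified DNA, CREB1 bound the CRE-core 8-mers according to the base next to the core. The full site tGACGTCa had z-scores of 193 and 136 (164.7 ± 39.97, SD, n = 2), the highest mean of the 65121 8-mers. On these arrays 4 and 8 of the 19 probes with the site were saturated. The 14 members with 1 half-site followed, with means from 28.2 (tGACGTCc) to 149.7 (GACGTCac). All 33 members with neither base had means of 10.4 or less, so that the lists with and without a half-site did not overlap.

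The same order held within each offset of the core. With the core first, GACGTCac scored 169 and 131 and GACGTCat 118 and 101, against 2.73 and 1.83 for GACGTCcc and 1.52 and 2.00 for GACGTCcg. With the core last, atGACGTC scored 109 and 111 and gtGACGTC 88.3 and 109, against 0.414 and 0.415 for agGACGTC and 2.40 and 3.05 for gaGACGTC. With the core centred, cGACGTCa followed the full site at 91.6 and 95.5. The members with the core centred that lay lowest were gGACGTCc at -0.225 and 0.822 and aGACGTCc at 1.76 and 1.41.

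Among the 4 palindromes, which are the only members whose flanks match on both sides, the bases beside the core set levels far apart for CREB1 on C. The palindrome cGACGTCg scored 8.58 and 11.9, aGACGTCt 2.04 and 3.17, and gGACGTCc -0.225 and 0.822. Of the palindromes other than the full site, only cGACGTCg reached a z-score of 4 on both arrays, and the full site was far above it. On the scale of raw signal, the probes of the full site read 34.0 and 25.0 times the array median, and those of gGACGTCc 0.998 and 1.05 times.

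The bases beside a centred core ranked alike on its 2 sides. The 4 members with T before the core had a median CREB1 mean on C of 70.2, those with C 7.27, those with A 3.42 and those with G 1.97. After the core, the complementary order was seen, with medians of 73.0 for A, 7.24 for G, 3.25 for T and 2.93 for C. These sides are not independent, because each member also has its reverse complement in the set. The probes themselves gave the same order. Probes with both half-sites around the core read 34.0 and 25.0 times the array median (19 probes), those with 1 half-site 9.40 and 12.8 times (101 probes) and those with none 1.34 and 1.59 times (160 probes). Probes with the core at an end of the variable bases were not counted here.

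CREB1 scores on 8-mers with a half-site but without the whole core were of the same size. The 80 tested 8-mers with TGACGT on either strand but without the whole core had a median CREB1 mean of 71.4 on C, against 64.9 for the 15 core members with a half-site. The 1150 other 8-mers with ACGT had a median of 6.49, against 4.23 for the 33 core members without a half-site. The median over all 8-mers tested was 0.010.

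ATF1 on C gave the same division at lower scores. The full site scored 121 and 89.7 (106 ± 22.4, SD, n = 2) and ranked 3 among all 8-mers. Of its 19 probes, 11 and 12 were saturated, so the signal behind these scores is a lower bound. GACGTCac followed at 98.0 and 74.1, then atGACGTC at 64.9 and 53.9. The 15 members with a half-site had means from 12.3 to 106, and none of the other 33 was above 4.90 (GACGTCga).

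In the fit over all 8-mers, 25 of the 48 members scored lower with ATF1 than with CREB1 on C (13 of 15 with a half-site, 12 of 33 without), against 1.94% of the 65121 8-mers tested that were called lower. The test was limma with Benjamini-Hochberg adjustment at 0.05. No member was called higher, and the median difference over the 48 was -3.83. For the full site the difference was -59.15 (SE 15.2, adjusted p = 0.0475 in limma), with saturation on both proteins. The count depended on the scale: 15 members were called on log2 signal, 0 with z-scores quantile normalized and 0 after normexp background correction. It was 37 without replicate 1 and 15 without replicate 2 of CREB1 on C, and 15 without replicate 1 and 11 without replicate 2 of ATF1 on C.

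JUND bound few of the 8-mers. On C the full site scored 69.1 and 13.9, so the arrays differed widely, and both values lay above those of every other member on the same array. It ranked 25 among all 8-mers. The next members were atGACGTC at 8.78 and 4.36 and gtGACGTC at 7.43 and 1.43. All other members had means under that of gtGACGTC (4.43).

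Compared with CREB1 on C, 46 of the 48 members scored lower with JUND (15 of 15 with a half-site, 31 of 33 without) in limma after Benjamini-Hochberg adjustment, against 8.73% of all 8-mers. For the full site the difference was -123.23 (SE 15.2, adjusted p = 8.6e-06 in limma). GACGTCac, second for CREB1, scored 3.18 and 0.547 with JUND.

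With 5mC on the synthesized strand, CREB1 scored lower on 39 of the 48 members and higher on none, in limma after Benjamini-Hochberg adjustment. Of all 8-mers tested, 6.21% were called lower. All 15 members with a half-site fell, with a median change of -62.23, and 24 of the 33 others fell. The full site went to 33.7 and 12.0 (22.8 ± 15.3, SD, n = 2), a change of -141.91 (SE 15.2, adjusted p = 1.9e-06 in limma). On the scale of raw signal its probes went from 34.0 and 25.0 to 6.95 and 3.37 times the array median. Both 5mC arrays were below both C arrays.

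With 5mC, 13 of the 14 members with 1 half-site kept a smaller share of their CREB1 score than the full site. The share kept is the mean on modified DNA over the mean on C, and it was taken only for the 29 members with both C arrays at a z-score of 4 or more. The full site kept 13.9% and the 15 members with a half-site had a median of 6.33%, from 3.48% (tGACGTCc) to 16.3% (cGACGTCa). GACGTCac fell from 169 and 131 to 16.8 and 5.95. The 3 members that kept least among those with a half-site were tGACGTCc, tGACGTCt (3.51%) and gGACGTCa (3.57%). No test was made of these shares.

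With 5hmC, CREB1 scored lower on 43 of the 48 members and higher on none, in limma after adjustment, against 6.78% of all 8-mers. All 15 with a half-site fell, with a median change of -61.47, and 28 of the 33 others fell. With quantile normalized z-scores the count was 27. The full site read 27.5 and 44.9 (36.2 ± 12.3, SD, n = 2), a change of -128.55 (SE 15.2, adjusted p = 6.1e-06 in limma). It kept 22.0% of its score, the highest of the half-site members, which had a median of 5.46% and a minimum of 4.24% (GACGTCat). In raw signal the probes of the full site read 4.30 and 4.85 times the array median, against 6.95 and 3.37 with 5mC. The 5mC and 5hmC comparisons share their C arrays.

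Of the 4 half-site members with the core last, 3 kept more of their CREB1 score with 5hmC than their reverse complements. gtGACGTC read 13.3 and 16.9, or 15.3% of its mean on C, and atGACGTC 6.41 and 19.2, or 11.6%. Their reverse complements GACGTCac and GACGTCat kept 4.26% and 4.24%, with scores of 4.46 and 8.30 and of 3.05 and 6.22. In the fit of strand differences below, neither pair was called on 5hmC in z-scores (adjusted p = 0.4998 for GACGTCac and 0.0656 for atGACGTC, in limma). On log2 signal both were called, with GACGTCac lower than gtGACGTC by -0.74 (adjusted p = 0.000528) and atGACGTC higher than GACGTCat by 0.54 (adjusted p = 0.0140).

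The direct comparison of 5hmC with 5mC for CREB1 called 0 of the 48 members in limma after adjustment, against 0.952% of all 8-mers called in either direction, and 2 members had an unadjusted p under 0.05. For the full site 5hmC minus 5mC was 13.36 (SE 15.2, adjusted p = 0.786 in limma), and the array values overlapped. On the log2 signal scale, 4 members were called, all lower with 5hmC: cGACGTCa by -1.37, GACGTCac by -1.02, acGACGTC by -0.91 and gcGACGTC by -0.72. The share of all 8-mers called on that scale is not given here, so this count stands without its background. In z-scores cGACGTCa read 19.8 and 10.8 with 5mC and 4.46 and 5.74 with 5hmC.

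ATF1 scored far lower on the full site with either modified base. With 5mC the full site went from 121 and 89.7 to 6.69 and 8.59 (7.64 ± 1.35, SD, n = 2), a change of -97.95 (SE 15.2, adjusted p = 0.00266 in limma). With 5hmC it read 8.94 and 8.77 (8.86 ± 0.126, SD, n = 2), a change of -96.74 (SE 15.2, adjusted p = 0.00277 in limma). In raw signal, the site went from 24.8 and 19.9 times the array median to 2.30 and 2.55 with 5mC and 2.06 and 1.96 with 5hmC. Since 11 and 12 of its 19 probes were saturated on C, the falls in raw signal are lower bounds.

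Of the 48 members, 20 were called lower with 5mC (12 of 15 with a half-site, 8 of 33 without) and 21 with 5hmC (13 of 15 and 8 of 33), in limma after Benjamini-Hochberg adjustment. The shares of all 8-mers called lower were 2.06% and 2.08%. No member was called higher. The half-site members, which were the 15 with both C arrays at 4 or more, kept a median of 6.85% with 5mC (3.04% to 17.5%) and 2.45% with 5hmC (-0.645% to 14.0%). GACGTCaa kept the most of both, at 3.63 and 2.22 with 5mC and 2.59 and 2.08 with 5hmC from 17.8 and 15.6 on C. With 5hmC, GACGTCac read 0.990 and 0.715, no more than 1 unit above the middle of the array.

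The ATF1 counts rested on having both arrays of each group. Without replicate 1 or 2 of ATF1 on C, 4 and 3 members were called with 5mC and 5 and 7 with 5hmC. Without replicate 1 or 2 of ATF1 on 5mC the 5mC count was 1 and 0, and without replicate 1 or 2 of ATF1 on 5hmC the 5hmC count was 1 and 3. On log2 signal the counts were higher, 32 with 5mC and 33 with 5hmC, and held all 15 half-site members in both comparisons. In the fit of ATF1 arrays alone 38 were called with 5hmC.

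For ATF1, 5hmC minus 5mC called 0 of 48 members in limma after adjustment, and 3 had an unadjusted p under 0.05. Of all 8-mers, 0.725% were called in either direction. On log2 signal 5 members were called, all lower with 5hmC, among them cGACGTCa (-0.87), acGACGTC (-0.83) and gcGACGTC (-0.69). These 3 were also lower with 5hmC than with 5mC for CREB1 on that scale, and each has C as the base before the core. The other members with C before the core (cGACGTCc, cGACGTCg, cGACGTCt, ccGACGTC and tcGACGTC) were not called for CREB1 on that scale. GACGTCac, also called for CREB1, has no base before the core. With C before the core, tcGACGTC had CREB1 mean z-scores of 0.565 with 5mC and 0.657 with 5hmC. Whether members with C there differed as a group was not tested. The share of all 8-mers called on log2 signal is not given here.

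No change of a CRE-core 8-mer was called for JUND. With 5mC the full site read 3.22 and 1.66 (2.44 ± 1.10, SD, n = 2) and with 5hmC 4.55 and 2.44 (3.49 ± 1.49, SD, n = 2), against 69.1 and 13.9 on C. Both modified DNAs were thus below both C arrays, but limma gave changes of -39.07 (SE 15.2, adjusted p = 0.200) and -38.02 (adjusted p = 0.433). The 5mC change turned on which C array was used: it was -11.48 without replicate 1 of JUND on C (adjusted p = 0.804 in limma) and -66.67 without replicate 2 (adjusted p = 0.0335 in limma). The 5hmC change was -10.43 and -65.61, called in neither. The members called were 0 of 48 in each of 5mC minus C, 5hmC minus C and 5hmC minus 5mC, with 1, 1 and 2 members at an unadjusted p under 0.05, where 1.04%, 0.0% and 3.11% of all 8-mers were called. On log2 signal after normexp correction the full site was called lower with 5mC (-2.94, SE 0.634, adjusted p = 0.0091 in limma). It was not called on log2 signal as is (-1.69, adjusted p = 0.0525 in limma) or with quantile normalized z-scores (-33.88, adjusted p = 0.0659 in limma). After normexp correction 2, 0 and 3 members were called, and without replicate 1 of JUND on 5hmC 1 was called in the last comparison.

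The highest JUND scores on modified DNA were low throughout. On 5mC the full site was followed by GACGTCaa at 1.41 and 2.12 and gcGACGTC at 2.20 and 1.10. On 5hmC it was followed by atGACGTC at 4.73 and 0.483 and GACGTCaa at 1.65 and 1.24. Replicate arrays of JUND on 5hmC correlated at 0.377 over the 48 members, against 0.966 for CREB1 on C, so differences among members were poorly resolved there.

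A member counted as bound where both arrays gave z-scores of at least 4. CREB1 bound 29 of 48 on C, 8 on 5mC and 6 on 5hmC. ATF1 bound 15, 3 and 3, and JUND 2, 0 and 0. Of all 8-mers, CREB1 bound 3.94% on C, 1.38% on 5mC and 1.13% on 5hmC, so the share bound fell over all 8-mers too. For ATF1 these shares were 2.38%, 0.855% and 0.327%, and for JUND 0.283%, 0.387% and 0.103%.

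The size of the fall was compared between CREB1 and ATF1 as a difference of effects. With 5mC, 5 of 48 members fell by less for ATF1 than for CREB1 in limma after adjustment, namely aGACGTCa, GACGTCaa, GACGTCag, gGACGTCa and tGACGTCt, against 0.252% of all 8-mers. With 5hmC the called members were the same 5, against 0.21% of all 8-mers, and the comparisons share the C arrays. All 5 had 1 half-site and scored higher with CREB1 on C to begin with: aGACGTCa, for example, read 46.2 and 58.5 with CREB1 and 17.8 and 17.5 with ATF1. On log2 signal the differences of these 5 were of the same sign, from 0.81 to 1.29 with 5mC and from 0.76 to 1.23 with 5hmC, and none was called. In both comparisons 0 members were called on log2 signal, with quantile normalized z-scores, after normexp correction, and in the fit of these proteins' arrays alone.

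These interaction counts also moved with single arrays. For 5mC they were 24 without replicate 1 and 8 without replicate 2 of CREB1 on C, 2 without replicate 1 of CREB1 on 5mC, 2 without replicate 1 or without replicate 2 of ATF1 on C and 0 without replicate 1 or without replicate 2 of ATF1 on 5mC. For 5hmC they were 22 without replicate 1 of CREB1 on C, 1 without replicate 1 or without replicate 2 of ATF1 on C, and 0 without any 1 array of CREB1 or ATF1 on 5hmC. For the full site, the difference of effects was 43.96 with 5mC (SE 21.5, adjusted p = 0.939 in limma) and 31.81 with 5hmC.

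Of the 7 members with a second CpG just before the core and no half-site, 4 fell with 5mC for CREB1, and of the 7 with it just after the core all fell. The 2 members that kept the largest share were of the first kind. gcGACGTC read 4.72 and 10.2 on C and 5.82 and 6.32 with 5mC, keeping 81.2% of its mean, and acGACGTC read 4.84 and 10.5 on C and 5.60 and 6.58 with 5mC, keeping 79.3%. The values on C and 5mC overlapped for both, and neither changed in limma (adjusted p = 0.650 and 0.589). ccGACGTC was next at 31.7% and the median of the 14 members without a half-site was 20.5%. Its neighbour tcGACGTC, also with CpG before the core, fell from 8.80 and 11.7 to 0.534 and 0.595.

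With ATF1 the same 8-mers lay near their level on C, reading 2.80 and 2.08 on C and 3.32 and 4.13 with 5mC for gcGACGTC, and 2.49 and 3.48 on C and 3.19 and 3.35 with 5mC for acGACGTC. With 5hmC, CREB1 on gcGACGTC read 3.64 and 3.87, which kept 50.3%, the largest share of any member, while acGACGTC read 2.51 and 1.61. The change of acGACGTC with 5hmC was called (-5.62, SE 1.27, adjusted p = 0.00633 in limma) and that of gcGACGTC was not (adjusted p = 0.0875). With ATF1 on 5hmC, gcGACGTC read 1.13 and 0.722 and acGACGTC -0.380 and 0.0468.

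Only 1 strand is modified, and each member is written as on that strand. A pair of reverse complements is therefore the same 8-mer duplex with the modified strand exchanged, but each is read on its own set of probes. For example, GACGTCcc had 13 probes and ggGACGTC 21. The part of the probes in these differences was not tested. On C neither strand is modified, so the C arrays give the background for this comparison. Differences within an array were tested over all 32225 pairs against 0. On C, 12 of 22 core pairs differed for CREB1 and 5 for ATF1 in limma after adjustment, where 10.7% and 6.44% of all pairs did. With 5mC 5 pairs differed for CREB1 (14.0% of all pairs) and 2 for ATF1 (19.5%). With 5hmC 1 differed for CREB1 (13.9%) and 0 for ATF1 (8.07%), where 1 of the 22 had an unadjusted p under 0.05. The C counts depended on the scale. For CREB1 the C count was 2 with quantile normalized z-scores, 2 after normexp correction and 8 on log2 signal, and for ATF1 it was 4, 0 and 3. On log2 signal 10 pairs were called for CREB1 and 12 for ATF1 with 5mC. The shares of all pairs called on these other scales are not given here. Without replicate 1 of CREB1 on 5mC its 5mC count was 3, without either array of CREB1 on 5hmC its 5hmC count was 0, without replicate 2 of ATF1 on C its C count was 3, and without either array of ATF1 on 5mC its 5mC count was 1.

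The largest differences on C were between strong members. For CREB1, GACGTCac exceeded gtGACGTC by 51.02 (169 and 131 against 88.3 and 109), cGACGTCa exceeded tGACGTCg by 15.36, and GACGTCaa exceeded ttGACGTC by 15.01. For ATF1, GACGTCac exceeded gtGACGTC by 29.94, ctGACGTC exceeded GACGTCag by 17.56 and atGACGTC exceeded GACGTCat by 14.59. All 6 were called in limma, with adjusted p from 3.4e-07 to 0.0360. On log2 signal 4 of the 6 were called; the CREB1 difference of cGACGTCa (0.21, adjusted p = 0.181) and the ATF1 difference of atGACGTC (-0.061, adjusted p = 0.781) were not. All of these pairs had saturated probes on C. On log2 signal without them GACGTCac was lower than gtGACGTC by -0.27 for CREB1 and -0.69 for ATF1, and the ATF1 difference of ctGACGTC was -0.027. The other 3 kept their direction, at 0.32 for cGACGTCa, 0.82 for GACGTCaa and 0.60 for atGACGTC.

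On 5mC the pairs called for both proteins had a second CpG beside the core. For ATF1, 2 of 22 core pairs were called, against 19.5% of all pairs. Not every pair of this layout differed. GACGTCga minus tcGACGTC was 0.25 for CREB1 and 0.17 for ATF1, with the second CpG after the core on the higher strand. CREB1 on gcGACGTC read 5.82 and 6.32, and on its reverse complement GACGTCgc 1.84 and 1.48, a difference of -4.40 for GACGTCgc minus gcGACGTC (SE 0.526, adjusted p = 3.6e-05 in limma). ATF1 gave 3.32 and 4.13 against -0.162 and 0.412 (adjusted p = 0.000492 in limma). In both, the modified strand with the second CpG before the core had the higher score.

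CREB1 on acGACGTC read 5.60 and 6.58 with 5mC, against 1.22 and 2.58 on GACGTCgt, a difference of 4.19 (SE 0.656, adjusted p = 0.000461 in limma). On C that pair lay the other way, at 4.84 and 10.5 against 8.60 and 12.2, a difference of -2.70 (adjusted p = 0.0138 in limma). With the half-site present, cGACGTCa read 19.8 and 10.8 with 5mC and tGACGTCg 5.27 and 4.36, a difference of 10.47 (SE 2.94, adjusted p = 0.0266 in limma). ccGACGTC also exceeded its reverse complement with 5mC for both proteins, but for CREB1 the difference was 2.47 on C and 2.49 with 5mC.

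Whether a strand difference changed with the modification was tested as its difference from that on C, a comparison chosen after the values were seen. With 5mC it changed for 7 of 22 pairs for CREB1 (5.08% of all pairs) and 4 for ATF1 (2.03%), and with 5hmC for 6 (4.25%) and 2 (0.236%), in limma after adjustment. Without replicate 1 of CREB1 on 5mC the first count was 4. For ATF1 the 5mC count was 2 without replicate 1 of C and 1 without any other array, and the 5hmC count was 1 without any 1 array. The acGACGTC pair moved by 6.89 with 5mC (SE 0.928, adjusted p = 0.000181 in limma) and, on log2 signal, by 1.12 (adjusted p = 2.9e-05). The GACGTCgc pair moved by -2.86 for CREB1 (adjusted p = 0.0338) and -3.99 for ATF1 (adjusted p = 0.0119), and on log2 signal by -0.60 and -0.80, both called.

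Other called changes were of pairs that differed on C. The GACGTCac pair moved by -47.29 with 5mC and -59.75 with 5hmC for CREB1, the GACGTCaa pair by -12.67 and -11.38, and the aGACGTCa pair by 10.92 and 9.09. These pairs had high scores on C and low ones on modified DNA. Not all called changes were of such pairs. The agGACGTC pair, with CREB1 means on C of 0.414 and 5.33, moved by 4.18 with 5mC and 4.22 with 5hmC, both called. On log2 signal its changes were 0.22 and 0.38, and neither was called. The GACGTCac pair went from 51.02 on C to 3.74 with 5mC and, with the other sign, to -8.73 with 5hmC. On log2 signal the changes of the GACGTCac and GACGTCaa pairs with 5mC were 0.05 and -0.19, and neither was called. With 5hmC they were -1.14 (adjusted p = 0.000288, called) and -0.22 (not called), and the change of the GACGTCac pair for ATF1 was -0.96 (called). Without saturated probes the 5hmC change of the GACGTCac pair for CREB1 was -0.13 on log2 signal and was not called.

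The 19 single probes with the full site varied widely within an array. Of these, 3 are shown because they span the responses. Their variable bases are given as deposited, with the site in capitals.
Site in the middle of the probe: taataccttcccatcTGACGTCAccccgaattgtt
Probe that kept most for CREB1 and ATF1: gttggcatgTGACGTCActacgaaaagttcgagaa
Probe that kept least for CREB1 with 5mC: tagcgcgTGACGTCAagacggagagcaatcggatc
As the mean of the arrays of a group, CREB1 signal on the first was 23.3 times the array median on C, 4.51 times with 5mC and 4.01 times with 5hmC. The second read 35.7 times on C, 24.9 times with 5mC and 29.4 times with 5hmC. The last read 35.7 times on C, 2.57 times with 5mC and 3.30 times with 5hmC. Both were saturated on the C arrays, and the second also on replicate 2 with 5mC for both proteins, so those values are lower bounds. ATF1 read 14.5 and 26.7 times the median on the second probe with 5mC and 5hmC and 1.39 and 1.44 times on the last.

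The place of the site on the probe went with its signal for CREB1. Among the 19 probes, the 10 with over 13 variable bases after the site had a median CREB1 signal on C of 63988 and 65527 in the 2 arrays, and the 9 others 17707 and 31779. On these C arrays 4 and 7 of the 10 probes were saturated, so the median of 65527 is a lower bound. With 5mC the medians were 23357 and 33162 against 7025 and 9980. For JUND on C the medians were 25583 and 3250.5 against 10987 and 1836, in the same order. Over the 19 single probes, however, JUND signal on C did not rank with the number of bases after the site. Spearman rho was 0.106 and -0.134 for JUND on C, against 0.844 and 0.717 for CREB1 on C. For JUND on 5mC they were 11179 and 9006 against 11617 and 9344, with no such order. On 5hmC the JUND arrays differed in order, with 2329.5 and 814.75 against 1967.5 and 978.5. The part of probe position in the differences between members was not tested.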

How the data were processed

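Protein binding microarrays of CREB1, ATF1 and JUND on C, 5mC and 5hmC DNA were analysed as 9 groups of 2 arrays. Per the file headers, the authors made and deposited a score, the z-score, for each 8-mer on each array. Its formula, the scanner and the image analysis are not given in sources used here. The authors also deposited, for each probe, median fluorescence intensity of signal and of background in linear units. Over 8-mers, z-scores followed (Spearman rho 0.957 to 0.975) the median signal, less background, of probes with the 8-mer on the synthesized strand. They followed that of probes with it on the printed strand less closely (-0.0808 to 0.509), so 8-mers are written as on the synthesized strand.

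The fit was limma 3.58.1 in R 4.3.3 on the z-scores of all 18 arrays, with 1 mean per group (9 residual and 10.7 prior degrees of freedom), and a mean-variance trend. Tests were two-sided, with Benjamini-Hochberg adjustment across 65121 8-mers at 0.05. The 409 8-mers without a probe were left out. Strand differences (8-mer minus reverse complement within an array) were fitted likewise over 32225 pairs. The spread is shared by all groups. The scripts were tested on simulated data. Alternatives were a replicate block, no trend, only the arrays of the proteins compared, quantile normalized z-scores, log2 median signal (as is, after normexp with offset 50, and without saturated probes), 8-mers with 10 or more probes, and leaving out each array. Shares of all 8-mers or pairs called are given for the z-score fit of all 18 arrays only, not for these alternatives. Other steps used Python 3.11.15, numpy 2.4.6, pandas 2.3.3 and scipy 1.17.1. The members and lists were chosen with earlier results of these data known. Named 8-mers were the palindromes, the 2 highest and 2 lowest of CREB1 on C at each offset, the 3 that kept most and least, the 3 highest of JUND on each DNA, and the 3 pairs with the largest strand difference per group. Those named outside this rule (the members called in the differences of effects and on log2 signal, tGACGTCg, tcGACGTC, GACGTCga) were chosen after their values were seen.

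Same-numbered arrays of a protein did not deviate together in all pairs of groups (correlations from -0.166 to 0.636), so the replicate numbers were not taken as pairs.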

Additional observations from a re-analysis of the deposited data

Results flagged for a closer look

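For 5 CRE-core 8-mers the response to a modification differed between CREB1 and ATF1 by a test of the difference itself (limma, adjusted p from 0.00844 to 0.0189 with 5mC and 0.00798 to 0.0241 with 5hmC). ATF1 minus CREB1, the difference of the 5mC effects was 32.24 for aGACGTCa, 30.88 for GACGTCaa, 40.64 for GACGTCag, 22.71 for gGACGTCa and 36.37 for tGACGTCt. The difference of the 5hmC effects was 32.63 for aGACGTCa, 30.15 for GACGTCaa, 39.95 for GACGTCag, 21.93 for gGACGTCa and 33.50 for tGACGTCt. Positive values mean a smaller fall for ATF1, whose scores on C were lower. With 5hmC, ATF1 kept a smaller share of its score on C than CREB1 for GACGTCag (0.0933% against 4.34%) and gGACGTCa (0.155% against 4.31%). The same held for tGACGTCt (1.98% against 6.07%) and aGACGTCa (5.76% against 5.87%), but not for GACGTCaa (14.0% against 10.9%). With 5mC, ATF1 kept a smaller share for aGACGTCa alone (4.85% against 6.33%). On log2 signal none of these was called, with differences from 0.81 to 1.29 with 5mC and from 0.76 to 1.23 with 5hmC. None was called with quantile normalized z-scores, after normexp correction or in the fit of these proteins' arrays alone. The comparisons share their C arrays.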

How the results depend on the processing

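The falls of CREB1 scores kept their direction and stayed within 1.5 times their count under all alternatives but one: with quantile normalized z-scores 27 members were called with 5hmC. Over the 176 values of named 8-mers that were called or belonged to the full site, 1800 of 2294 recomputations kept direction and call, 468 lost the call, 2 gained it and 24 changed sign. The cause of these changes was not tested, except that leaving out an array leaves its group with 1 array, assumed to vary like the others.

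With the replicate number as a block, 41 and 43 members were called for CREB1 and 19 and 20 for ATF1 (5mC and 5hmC), and 3 strand pairs for CREB1 on 5hmC. No other count moved beyond 1.5 times. The crossed pairing, chosen after seeing the data, gave 40, 44, 23 and 25, and 2 pairs. Testing only 8-mers with 10 or more probes gave 2 pairs for CREB1 on 5hmC. Without a trend, the differences of effects gave 13 and 11. In fits of only the arrays of the proteins compared, the counts were 38 for ATF1 with 5hmC, 2 for its 5hmC minus 5mC, 0 for both differences of effects, 3, 4 and 1 strand pairs (CREB1 5mC, ATF1 5mC, ATF1 5hmC), and 4, 3 and 5 changed strand differences (CREB1 5mC, CREB1 5hmC, ATF1 5hmC).

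With quantile normalized z-scores, 1 member was called for ATF1 5hmC minus 5mC, 0 for ATF1 minus CREB1 on C, 0 for both differences of effects, 2, 2 and 1 strand pairs (CREB1 C, CREB1 5hmC, ATF1 5hmC), and 3 and 1 changed strand differences of CREB1. On log2 signal the counts were 32 and 33 for ATF1, 4 and 5 for 5hmC minus 5mC (CREB1, ATF1), 15 for ATF1 minus CREB1 and 0 for both differences of effects. Strand pairs were 10 and 3 for CREB1 (5mC, 5hmC) and 3, 12 and 2 for ATF1, with 4 and 1 changed strand differences of CREB1. After normexp, 5hmC minus 5mC gave 1, 5 and 3 (CREB1, ATF1, JUND), JUND 5mC 2, ATF1 minus CREB1 0, the differences of effects 0, strand pairs 2, 8 and 3 for CREB1 and 0, 9 and 2 for ATF1, and changed strand differences 1 and 1 for CREB1 and 1 for ATF1 with 5hmC. Without saturated probes, ATF1 gave 33 and 33, 5hmC minus 5mC 3, 4 and 2, the differences of effects 0, strand pairs 11 and 2 for CREB1 (5mC, 5hmC) and 3 and 10 for ATF1 (C, 5mC), and changed strand differences 4 and 0 for CREB1 and 0 for ATF1 with 5hmC.

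Values that changed sign with quantile normalization were ATF1 minus CREB1 on C for ctGACGTC (5.46), tGACGTCc (1.78) and ttGACGTC (1.21), and the difference of 5hmC effects for tGACGTCt (-1.87). On log2 signal they were, for tGACGTCa, 5hmC minus 5mC of CREB1 (-0.091) and ATF1 (-0.27) and the differences of effects (-0.61, -0.78), for atGACGTC the ATF1 strand difference on C (-0.061), and for GACGTCac its change with 5mC for CREB1 (0.046). After normexp they were the differences of effects of tGACGTCa (-0.93, -1.11), atGACGTC (-0.016), and the 5hmC changes of strand difference of CREB1 for aGACGTCa (-0.094) and GACGTCaa (0.041). Without saturated probes they were, for tGACGTCa, 5hmC minus 5mC (-0.36, -0.28) and the differences of effects (-0.15, -0.058), the strand differences on C of GACGTCac (-0.27 for CREB1, -0.69 for ATF1) and ctGACGTC (-0.027), and changes with 5mC of GACGTCac for CREB1 (0.16) and ctGACGTC for ATF1 (0.19).

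Leaving out each array gave 30 to 43 members for CREB1 with 5mC, 36 to 46 with 5hmC, 0 to 4 for ATF1 with 5mC, 1 to 7 with 5hmC, 11 to 37 for ATF1 minus CREB1, 37 to 45 for JUND minus CREB1, 0 to 24 and 0 to 22 for the differences of effects, 0 to 1 for JUND 5mC minus C and 5hmC minus 5mC, and 0 to 0 for the other 3 comparisons of members. Strand pairs were 8 to 9, 3 to 4 and 0 to 0 for CREB1 (C, 5mC, 5hmC) and 3 to 4, 1 to 1 and 0 to 0 for ATF1, and changed strand differences 4 to 7 and 4 to 6 for CREB1 and 1 to 2 and 1 to 1 for ATF1. Bound members at a z-score of 3 or 6 in place of 4 were, on C, 5mC and 5hmC, 31, 9 and 10 or 20, 3 and 3 for CREB1, 21, 7 and 3 or 15, 1 and 1 for ATF1, and 2, 0 and 0 or 1, 0 and 0 for JUND. Saturation limits the CREB1 and ATF1 values of the strongest members on C, and replicate spread those of JUND.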
